A study of Mus musculus with 36 samples.

Results

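The comparison described here is that of kidneys from mice on a high-fat diet with kidneys from mice on normal chow, taken at ZT4, which is 4 h after lights on. It uses 6 of the 36 libraries of the series, 3 per diet, chosen by the diet and time in their titles and by no measured value. The tag that gives the diet has ZT3 in its name in every sample, a time that no title has, so times come from the titles. All 36 came from male wild-type C57BL/6J mice that were 6 weeks old when the diets began, fed ad libitum in a day of 12 h light and 12 h dark, and the labels give 16 weeks for the harvest. The fat content of the diet is not given in the sources used here. The study asked how the diet changes the daily cycles of the kidney, and ZT4 is 1 of its 6 times. Whole kidney was used, and RNA was sequenced after a TruSeq library preparation. By their titles the high-fat libraries are replicates 3, 4 and 5 and the chow libraries are replicates 2, 3 and 4, and values below follow these replicate numbers in that order. The labels do not state that each replicate was a separate mouse, so p-values rest on the spread between libraries, which may in part be technical. In the main fit that spread was estimated over all 12 groups of the series, not from these 6 libraries alone. Values are FPKM, which are fragment counts scaled to transcript length and library size, as deposited. Nothing in the labels says that a single scaling run made the values of both diets, and such a difference could not be told apart from diet.

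The kidney filters blood and then recovers most of the filtrate along the tubule. Cells of the proximal tubule take back sugars, phosphate, amino acids and organic acids, and they also make glucose from lactate and other precursors. They burn fatty acids for most of their energy and make few of them, whereas fat around and within the organ both makes and stores them. Most cells of the kidney also carry a circadian clock, in which the transcription factors BMAL1 and CLOCK or NPAS2 drive repressors that later shut them off. ZT4 lies in the rest phase of mice, when Bmal1 transcripts are falling from their peak and those of its targets are rising.

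Kidney transcripts were abundant in all 6 libraries. Slc34a1, the phosphate transporter of the proximal tubule, had 2127, 2322 and 2486 FPKM in high-fat kidneys, against 2561, 2076 and 1801 FPKM in chow kidneys. Umod, which marks the thick ascending limb, had 1046, 892 and 775 FPKM in high-fat kidneys, against 857, 667 and 855 FPKM in chow kidneys. For both genes the groups overlapped.

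Transcripts of neighbouring tissue differed between the libraries. Cyp21a1, the steroid 21-hydroxylase of the adrenal cortex, was listed at 0 in all 3 high-fat libraries, against 262, 163 and 0.240 FPKM in the chow libraries. Chow replicates 2 and 3 therefore hold adrenal transcripts and chow replicate 4 holds almost none. Hsd3b1, a further enzyme of steroid synthesis, was also listed at 0 in the high-fat libraries, against 200.7, 125 and 0.454 FPKM in the chow libraries. Of 16 adrenal cortex genes tested, 0 passed the limma test at an adjusted p of 0.05. Against 1933 of all 11144 genes, 10 of the 16 had an unadjusted p under 0.05, 9 of them lower and 1 higher in high-fat kidneys. The summed level of this list was 282 to 307 FPKM in high-fat kidneys, against 240.1 to 1174 FPKM in chow kidneys. Without chow replicate 4, 7 of the 16 fell, against 137 of all 11122 genes. The enzymes Cyp11b1 and Cyp11b2, which complete steroid synthesis in the adrenal cortex, were listed at 0 in all 3 high-fat libraries as well.

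Most fat transcripts were lower in the high-fat libraries. Adipoq, the adipocyte hormone adiponectin, had 15.9, 3.74 and 30.7 FPKM in high-fat kidneys, against 61.3, 114 and 74.5 FPKM in chow kidneys (log2 change of -2.64 ± 1.13 (SE), adjusted p = 0.225). The summed level of the white adipocyte list was 305 to 635 FPKM in high-fat kidneys, against 1928 to 3729 FPKM in chow kidneys. Of its 18 genes tested, 13 were lower without overlap, against 9.43% of all genes tested. Of the 18, 16 had negative and 2 positive log2 changes. Lep, the fat hormone leptin, was 1 of the 2, with 5.24, 0.806 and 2.24 FPKM in high-fat kidneys, against 0.136, 1.24 and 1.37 FPKM in chow kidneys. These overlapped, and the log2 change of 1.10 ± 0.74 (SE) had an adjusted p of 0.440. Ucp1, the uncoupling protein of brown fat, had 1.52, 0.729 and 4.52 FPKM in high-fat kidneys, against 46.9, 47.4 and 6.27 FPKM in chow kidneys. In these bulk samples fewer fat cells in the piece of tissue and less of a transcript per cell cannot be told apart. Hbb-b1, a globin chain of red blood cells, had 506, 554 and 543 FPKM in high-fat kidneys, against 1068, 1865 and 751 FPKM in chow kidneys, without passing the test (adjusted p = 0.0654). The red blood cell list summed to 721 to 759 FPKM in high-fat kidneys, against 1011 to 2648 FPKM in chow kidneys. Of its 5 genes tested 0 passed the limma test and 4 were lower at an unadjusted p under 0.05, as were 2 of 5 brown adipocyte genes and 1 of 10 adrenal medulla genes with 0 passing. The part of blood or adrenal tissue in the results below was not tested beyond the values given beside them.

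**Figure D1:**
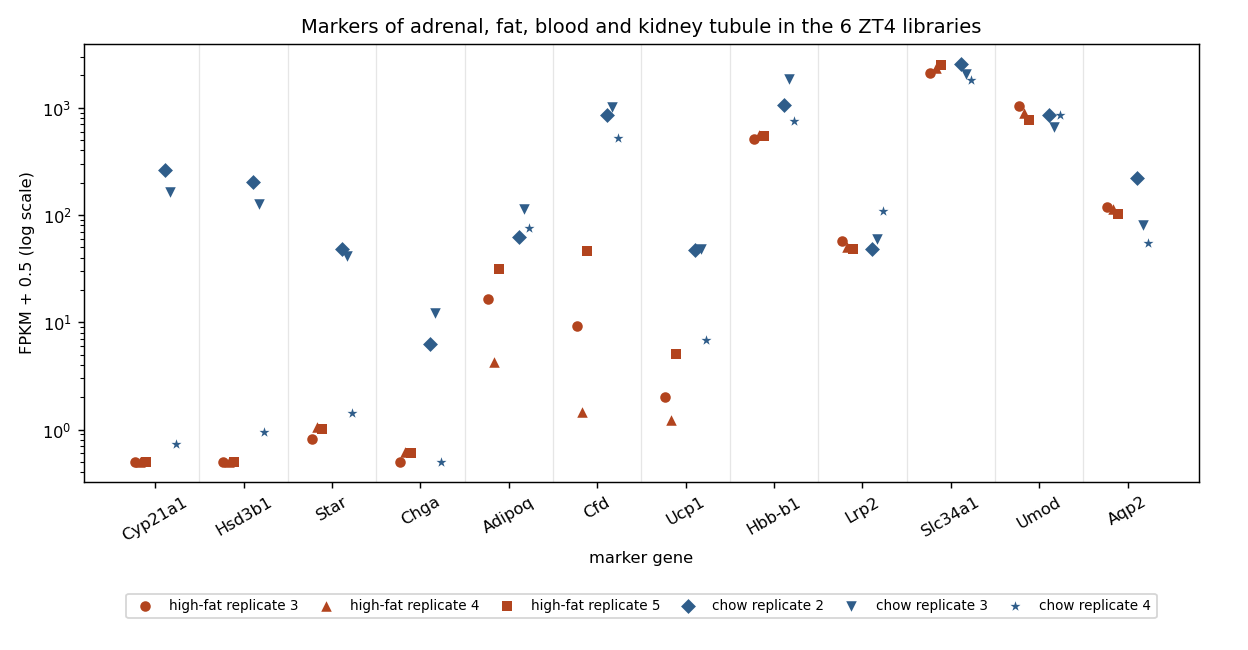
FPKM + 0.5 (y axis, log scale) of markers of the adrenal gland (Cyp21a1, Hsd3b1, Star, Chga), fat (Adipoq, Cfd, Ucp1), red blood cells (Hbb-b1) and kidney tubule (Lrp2, Slc34a1, Umod, Aqp2) in the 3 high-fat (left) and 3 chow (right) libraries, 1 point per library. The adrenal markers are high in chow replicates 2 and 3 only, the 3 fat markers shown are lower in the high-fat libraries, and the tubule markers overlap between the diets.

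The libraries also differed in depth and in base composition. Total reads are not known, but relative depth ranged from 0.324 to 0.889 in the high-fat libraries and from 0.692 to 1.19 in the chow libraries, and high-fat replicate 5 was the shallowest of the 36. The trend of expression over transcript GC content was 0.05, 0.03 and 0.27 log2 units per 10 percentage points in the high-fat libraries and 0.44, 0.09 and -0.41 in the chow libraries. Chow replicates 2 and 4 were the extremes of all 36 in this trend. The chow ZT4 group had the widest spread of the 12 groups, with a median SD over genes of 0.30 on the log2 scale, against 0.11 to 0.16 in the other 11.

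In the fit over all 36 libraries, 179 of the 11144 genes tested (1.61%) passed an adjusted p of 0.05 (limma on log2(FPKM + 0.5), Benjamini-Hochberg), and 1933 had an unadjusted p under 0.05. Of these, 53 (0.476%) rose and 126 (1.13%) fell in high-fat kidneys. At least 2-fold changes on this scale were made by 15 of the genes that rose and 36 of those that fell. For 171 of the 179 the 3 high-fat and 3 chow values did not overlap, while over all genes tested the groups did not overlap for 261 higher (2.34%) and 1051 lower (9.43%) genes. All 179 had the same sign against chow replicate 4 alone, the chow library without adrenal transcripts. That library is 1 of the 3 chow libraries behind the calls, so this is no separate check of them. The same holds for the changes against it that are given for single genes below.

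The fit takes its estimate of the spread from all 12 groups, although the chow ZT4 group spread more widely than the others. In a fit of the 6 ZT4 libraries alone, 1 gene passed, with 564 genes at an unadjusted p under 0.05, and none of the 179 did. That gene was Mir6340, a microRNA precursor, looked at after its values were seen: it was listed at 0 in the 3 high-fat libraries, against 42.3, 31.6 and 133 FPKM in the chow libraries. Without high-fat replicate 4 there were 49 calls, without high-fat replicate 5 there were 80, without chow replicate 3 there were 115, and without chow replicate 2 there were 1807. Without both chow libraries with adrenal transcripts, when chow replicate 4 stood alone and was assumed to vary like the other groups, 4887 genes (43.9%) passed, 154 of the 179 among them. Of the 4887, 1087 (9.76%) were higher and 3800 (34.1%) lower in high-fat kidneys.

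The balance of rises and falls depended on scaling. The median log2 change of all genes tested was -0.11, and 70.4% of calls were falls. After rescaling by median ratios the median was -0.01 and 181 genes (1.63%) passed, of which 118 (1.06%) rose and 63 (0.566%) fell, which made 34.8% falls. After upper quartile rescaling the median was 0.02 and 201 genes (1.8%) passed, of which 148 (1.33%) rose and 53 (0.476%) fell, which made 26.4% falls. After removal of each library's GC trend the median was 0.02 and 337 genes (3.02%) passed, of which 244 (2.19%) rose and 93 (0.835%) fell, which made 27.6% falls. The GC-corrected calls held 128 of the 179. Small changes of either sign are therefore read against the median of all genes.

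Fatty acid synthesis held more called genes than any other of the 38 gene lists. Of 23 genes of this list tested, 7 fell and 0 rose, against 1.13% and 0.476% of all genes. The median log2 change was -0.62 against -0.11 for all genes. Of the 23, 10 were without overlap and lower in high-fat kidneys, against 9.43% of all genes. The 7 were Acaca, Acacb, Fasn, Elovl6, Scd1, Fads1 and Thrsp.

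Acaca encodes acetyl-CoA carboxylase 1, which makes the malonyl-CoA from which fatty acids are built. It had 1.73, 1.62 and 1.79 FPKM in high-fat kidneys, against 6.22, 10.1 and 6.79 FPKM in chow kidneys. The lowest chow library was over 3 times the highest high-fat library, and the log2 change was -1.86 ± 0.26 (SE, adjusted p = 0.000391). Against chow replicate 4 alone it was -1.72. Fasn, the fatty acid synthase that strings malonyl units together, had 5.59, 5.05 and 5.40 FPKM in high-fat kidneys, against 28.7, 64.9 and 23.1 FPKM in chow kidneys. The groups were far apart, with a log2 change of -2.61 ± 0.44 (SE, adjusted p = 0.00176). It was -2.02 against chow replicate 4 alone.

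Enzymes that act on the finished chain fell too. Scd1, the desaturase that makes oleate, had 18.4, 7.88 and 16.1 FPKM in high-fat kidneys, against 55.3, 143 and 85.1 FPKM in chow kidneys (adjusted p = 0.0246). Elovl6, which lengthens palmitate to stearate, had 1.62, 1.51 and 0.976 FPKM in high-fat kidneys, against 3.51, 6.36 and 2.72 FPKM in chow kidneys (adjusted p = 0.00777). Fads1, the delta-5 desaturase of polyunsaturated fatty acids, had 13.3, 11.8 and 9.65 FPKM in high-fat kidneys, against 25.8, 28.6 and 18.0 FPKM in chow kidneys (adjusted p = 0.00104). In none of these genes did the groups overlap. Acacb, the carboxylase at the mitochondrion whose product restrains fatty acid import, had 2.58, 1.93 and 1.63 FPKM in high-fat kidneys, against 5.12, 5.61 and 3.45 FPKM in chow kidneys (adjusted p = 0.00787). Srebf1, which encodes the main transcription factor of these enzymes, was lower in every high-fat library but did not pass the test: it had 8.83, 8.65 and 8.69 FPKM in high-fat kidneys, against 12.1, 12.4 and 9.26 FPKM in chow kidneys (log2 change of -0.34 ± 0.20 (SE), adjusted p = 0.388).

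Fat cells express these enzymes strongly, and Adipoq was lower in the same high-fat libraries. With the mean log2 level of the white adipocyte list as a covariate, 68 of all genes (0.61%) passed, 21 (0.188%) higher and 47 (0.422%) lower. Of the 23 genes, 3 then fell (Acaca, Fasn and Fads1) and 0 rose. Thrsp is itself in the list that makes the covariate, so the loss of its call was partly built in. Acaca had an adjusted p of 0.0055 and Fasn one of 0.0384, with log2 changes of -1.32 and -1.67 in that fit. Scd1 had -0.93 and an adjusted p of 0.231 in it. Fasn was between 5.05 and 5.59 FPKM in the high-fat libraries, whose Adipoq was 3.74 to 30.7 FPKM, and among the chow libraries it was highest in replicate 3 (64.9 FPKM), which also had the most Adipoq (114 FPKM). The count of 7 was 4 without chow replicate 3, where 88 of all genes fell, and 4 without high-fat replicate 5, where 53 did. It was 12 without chow replicate 2, where 1478 of all 11148 genes fell. Without both libraries with adrenal transcripts the median log2 change of the list was -0.63, against -0.20 for all genes.

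**Figure D2:**
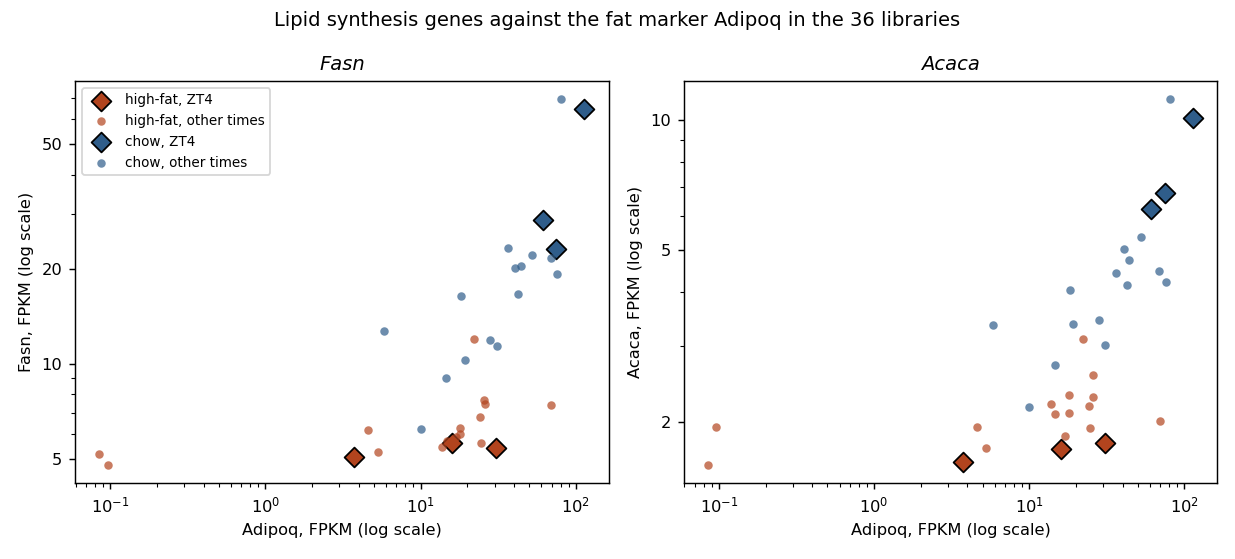
FPKM of Fasn and Acaca (y axes, log scale) against FPKM of the fat marker Adipoq (x axis, log scale) in the 36 libraries, with the 6 ZT4 libraries as large diamonds. The 3 high-fat ZT4 libraries lie at 5.05 to 5.59 FPKM of Fasn over Adipoq levels of 3.74 to 30.7 FPKM, and the 3 chow ZT4 libraries lie at 23.1 to 64.9 FPKM of Fasn over Adipoq levels of 61.3 to 114 FPKM.

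The white adipocyte list had the next most called genes. Of 18 genes of the white adipocyte list tested, 4 fell (Cfd, Thrsp, Car3 and Lipe) and 0 rose, against 1.13% and 0.476% of all genes. The 18 had a median log2 change of -2.32, and 13 were without overlap and lower, against 9.43% of all genes. Thrsp is also on the fatty acid synthesis list. Without high-fat replicate 4, 0 of the 18 passed the limma test, where 49 of all genes did. Without chow replicate 3, 1 fell, where 88 of all genes did. Without chow replicate 2, 9 fell, where 1478 of all 11148 genes did. Cfd, the complement factor adipsin that fat cells secrete, had 8.78, 0.944 and 45.2 FPKM in high-fat kidneys, against 853, 1005 and 527 FPKM in chow kidneys. This was the lowest log2 change of any called gene, -6.50 ± 1.23 (SE, adjusted p = 0.00470), and it was -5.96 against chow replicate 4 alone. Its adjusted p was 0.0622 without high-fat replicate 4, the library with the least Adipoq.

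Thrsp, a nuclear protein tied to lipogenesis, had 6.42, 2.43 and 12.1 FPKM in high-fat kidneys, against 76.9, 203 and 49.0 FPKM in chow kidneys (adjusted p = 0.0197). Car3, a carbonic anhydrase abundant in fat, had 31.2, 17.3 and 40.9 FPKM in high-fat kidneys, against 128, 316 and 276 FPKM in chow kidneys (adjusted p = 0.0231). Lipe, the hormone-sensitive lipase, had 10.97, 8.89 and 14.2 FPKM in high-fat kidneys, against 33.8, 42.5 and 19.9 FPKM in chow kidneys (adjusted p = 0.0391). All 3 followed Adipoq among the high-fat libraries, lowest in replicate 4 and highest in replicate 5. Among the chow libraries all were highest in replicate 3, as Adipoq was. There Adipoq and Car3 were lowest in replicate 2, but Thrsp and Lipe were lowest in replicate 4. Adrb3, the beta-3 adrenergic receptor of fat, had 0.494, 0.146 and 1.36 FPKM in high-fat kidneys, against 4.64, 8.04 and 6.11 FPKM in chow kidneys (adjusted p = 0.0244). Thrsp, Car3 and Lipe are themselves in the list that makes the adipocyte covariate, and Adrb3 is not. A loss of call with the covariate was therefore partly built in for these members. With the adipocyte covariate the adjusted p was 0.142 for Thrsp, 0.122 for Car3, 0.354 for Lipe and 0.187 for Adrb3. Without high-fat replicate 4 it was 0.120 for Thrsp, 0.120 for Car3, 0.159 for Lipe and 0.128 for Adrb3.

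Other transcripts that fell code for carriers and enzymes. Trf, the iron carrier transferrin, had 13.1, 8.08 and 12.7 FPKM in high-fat kidneys, against 40.5, 58.2 and 46.8 FPKM in chow kidneys, with a log2 change of -2.07 ± 0.33 (SE, adjusted p = 0.00122). Ces1g, a carboxylesterase of lipid handling whose cluster holds similar genes that could share reads, had 2.06, 1.82 and 2.61 FPKM in high-fat kidneys, against 10.1, 32.3 and 19.1 FPKM in chow kidneys, with a log2 change of -2.84 ± 0.42 (SE, adjusted p = 0.000644). These 2 genes kept their calls with each of the 6 libraries left out in turn and with the adipocyte covariate. Rbp4, the retinol carrier, had 1.51, 0.535 and 4.15 FPKM in high-fat kidneys, against 14.4, 33.3 and 13.7 FPKM in chow kidneys (adjusted p = 0.0285). Apoc1, an apolipoprotein, had 6.00, 4.04 and 10.2 FPKM in high-fat kidneys, against 82.0, 122 and 29.1 FPKM in chow kidneys (adjusted p = 0.0241). Both were lowest in high-fat replicate 4 and highest in high-fat replicate 5, as Adipoq was. Among the chow libraries both were highest in replicate 3, as Adipoq was, but lowest in replicate 4, where Adipoq was lowest in replicate 2. With the covariate their adjusted p was 0.153 for Rbp4 and 0.2296 for Apoc1. Without high-fat replicate 4 it was 0.147 for Rbp4 and 0.116 for Apoc1, and against chow replicate 4 alone Apoc1 had 0.110.

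Cpe, a carboxypeptidase that trims peptide hormones, had 9.30, 10.9 and 17.2 FPKM in high-fat kidneys, against 45.0, 27.7 and 55.9 FPKM in chow kidneys (adjusted p = 0.00621). Its groups did not overlap, and its adjusted p with the adipocyte covariate was 0.0748. Cela1, a serine elastase, had 86.1, 107 and 110.3 FPKM in high-fat kidneys, against 195, 203 and 144 FPKM in chow kidneys (adjusted p = 0.00150). It kept its call with that covariate (adjusted p = 0.0101) and with each library left out. The 2 remaining genes of the 15 named for the largest falls were Clec2h, a C-type lectin, and Amy1, an amylase, both from families of similar genes. Amy1 had 2.07, 0.981 and 1.81 FPKM in high-fat kidneys, against 4.87, 6.06 and 4.17 FPKM in chow kidneys (adjusted p = 0.0384, and 0.184 without high-fat replicate 4). Clec2h had 9.70, 13.8 and 10.8 FPKM in high-fat kidneys, against 18.7, 50.7 and 34.5 FPKM in chow kidneys (adjusted p = 0.0391, and 0.137 without chow replicate 3).

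Of these 15 falls, 5 kept their calls with each library left out in turn, and 14 kept them after GC correction. The highest adjusted p among the other 10 with 1 library left out lay between 0.0622 and 0.184. With the adipocyte covariate 5 of the 15 kept their calls, and Cfd, Thrsp, Car3 and Lipe are themselves in the list that makes it. In the mean of the other 5 times, 12 of the 15 fell, against 8.57% of all genes.

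The rise with the lowest adjusted p was that of a transporter of the proximal tubule. Slc13a3 (chr2:165405028-165473230, minus strand, mm10) encodes the carrier that brings dicarboxylates into tubule cells from the blood side. It had 321, 341 and 316 FPKM in high-fat kidneys, against 198, 196 and 180.1 FPKM in chow kidneys. The spread within each diet was small beside the gap between them, and the log2 change of 0.77 ± 0.10 (SE) had an adjusted p of 0.000148. It was 0.85 against chow replicate 4 alone and 0.80 with the adipocyte covariate. Slc13a2, its partner on the urine side, had 46.2, 41.8 and 43.8 FPKM in high-fat kidneys, against 32.2, 18.1 and 16.2 FPKM in chow kidneys (log2 change of 1.04 ± 0.18 (SE), adjusted p = 0.00187). Chow replicate 2 was the highest of the chow libraries and still below each high-fat library. Slc5a10, a sodium-coupled carrier of mannose and fructose, had 192, 199.9 and 159 FPKM in high-fat kidneys, against 131, 98.8 and 55.9 FPKM in chow kidneys (adjusted p = 0.00777, and 0.0584 without high-fat replicate 4).

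Pck1 (chr2:173153048-173159273, plus strand, mm10) encodes the cytosolic phosphoenolpyruvate carboxykinase that commits carbon to glucose. It had 1055, 733 and 669 FPKM in high-fat kidneys, against 419.7, 288 and 307 FPKM in chow kidneys. The groups did not overlap, and the log2 change was 1.27 ± 0.23 (SE, adjusted p = 0.00265) and 1.39 against chow replicate 4 alone. Of 25 genes of glucose metabolism tested, 2 rose and 0 fell (against 0.476% and 1.13% of all genes), with a median log2 change of 0.07. The other was Pklr, a pyruvate kinase, with 20.1, 18.4 and 13.8 FPKM in high-fat kidneys, against 13.1, 11.6 and 9.62 FPKM in chow kidneys (adjusted p = 0.0380, and 0.139 without high-fat replicate 4). G6pc, the last enzyme of glucose release, had a log2 change of 0.21 and did not pass.

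Of 29 genes of the proximal tubule transport list tested, 1 rose and 2 fell (against 0.476% and 1.13% of all genes), with a median log2 change of -0.26. The 2 that fell were Slc34a3, a phosphate carrier, with 16.5, 21.8 and 17.5 FPKM in high-fat kidneys, against 31.2, 34.3 and 22.4 FPKM in chow kidneys, and Slc7a7, which exports cationic amino acids to the blood. Slc7a7 had 44.1, 53.0 and 48.3 FPKM in high-fat kidneys, against 84.4, 99.7 and 65.2 FPKM in chow kidneys. Their adjusted p was 0.0465 for Slc34a3 and 0.0336 for Slc7a7. Neither passed after GC correction (0.0553 for Slc34a3 and 0.0606 for Slc7a7) nor against chow replicate 4 alone. In the GC-corrected fit 5 members of this list rose and 0 fell, against 2.19% higher and 0.835% lower of all genes. Against chow replicate 4 alone the median log2 change of the list was -0.21, near the -0.20 of all genes. Further along the nephron, Pvalb, the calcium-binding parvalbumin of the distal convoluted tubule, had 64.0, 70.8 and 68.4 FPKM in high-fat kidneys, against 42.8, 44.6 and 34.7 FPKM in chow kidneys (adjusted p = 0.00265). Aqp4, a water channel of the collecting duct, had 4.75, 3.44 and 1.47 FPKM in high-fat kidneys, against 0.329, 0.313 and 0.502 FPKM in chow kidneys (adjusted p = 0.0388, and 0.133 without high-fat replicate 4). Pvalb was the 1 called gene of 19 in the loop and distal tubule list, and Aqp4 the 1 called gene of 15 in the collecting duct list.

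Of 16 hormone-regulated tubule genes tested, 2 rose (Ttr and Rarres2) and 1 fell (Rbp4). Of 32 genes of xenobiotic metabolism 2 rose (Ugt2b37 and Cyp4b1) and 1 fell (Ces1g), while of all genes 0.476% rose and 1.13% fell. Ttr, the transthyretin that carries thyroid hormone, had 244, 218 and 302 FPKM in high-fat kidneys, against 140.1, 63.1 and 48.4 FPKM in chow kidneys (log2 change of 1.74 ± 0.34 (SE), adjusted p = 0.00777). Rarres2, the secreted adipokine chemerin, had 226, 312 and 245 FPKM in high-fat kidneys, against 81.5, 169 and 52.0 FPKM in chow kidneys (adjusted p = 0.0104, and 0.0807 without high-fat replicate 4). Its high-fat values all lay above its chow values. Ugt2b37, a UDP-glucuronosyltransferase of a family of similar genes, had 162, 139 and 92.9 FPKM in high-fat kidneys, against 28.4, 24.8 and 75.0 FPKM in chow kidneys. Its log2 change was 1.75 ± 0.28 (SE, adjusted p = 0.00106), but 0.77 against chow replicate 4 alone, the highest of the chow libraries.

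Slc25a25, a mitochondrial carrier of ATP-magnesium and phosphate, had 27.6, 29.8 and 38.9 FPKM in high-fat kidneys, against 16.6, 5.09 and 8.89 FPKM in chow kidneys (adjusted p = 0.00777, and 0.0616 without chow replicate 3). Mogat2, which joins fatty acids to monoacylglycerol, had 21.0, 25.8 and 21.1 FPKM in high-fat kidneys, against 14.0, 9.58 and 6.65 FPKM in chow kidneys (adjusted p = 0.00893, and 0.0687 without high-fat replicate 4). Egln3, a prolyl hydroxylase that marks HIF for destruction, had 7.44, 5.29 and 4.90 FPKM in high-fat kidneys, against 2.86, 2.75 and 3.09 FPKM in chow kidneys (adjusted p = 0.00893, and 0.0609 without high-fat replicate 3). Each had groups that did not overlap. Cxcl10, an interferon-induced chemokine, had 5.97, 7.75 and 6.11 FPKM in high-fat kidneys, against 2.21, 3.45 and 2.53 FPKM in chow kidneys (adjusted p = 0.0290, and 0.127 without high-fat replicate 4). It was the 1 called gene of 20 in the interferon list. Etnppl, an enzyme that breaks down phosphoethanolamine, had 7.56, 6.50 and 5.09 FPKM in high-fat kidneys, against 2.89, 3.17 and 3.49 FPKM in chow kidneys (adjusted p = 0.0133, and 0.0698 without high-fat replicate 4).

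The last 3 of the 15 named rises could not be told apart from neighbours or copies with certainty. Cml5, an acetyltransferase-like gene of a family of similar copies, had 60.4, 89.1 and 62.9 FPKM in high-fat kidneys, against 22.1, 14.2 and 35.5 FPKM in chow kidneys (adjusted p = 0.0290, and 0.142 against chow replicate 4 alone). Hnf4aos, an RNA antisense to Hnf4a that shares reads with it unless strand was counted, had 27.2, 33.3 and 33.9 FPKM in high-fat kidneys, against 22.98, 16.1 and 13.9 FPKM in chow kidneys. Cyp4b1-ps2 is a pseudogene that may share reads with Cyp4b1, and both rose, Cyp4b1 by a log2 change of 0.52 and Cyp4b1-ps2 by 0.76. Cyp4b1, a cytochrome that hydroxylates fatty acids and xenobiotics, had 2416, 3131 and 2984 FPKM in high-fat kidneys, against 2071, 1795 and 2075 FPKM in chow kidneys (adjusted p = 0.0143, and 0.109 without high-fat replicate 4).

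Of the 15 rises, 5 (Ugt2b37, Ttr, Pck1, Slc13a2 and Slc13a3) kept their calls with each library left out in turn. The other 10 lost them without at least 1 library, with a highest adjusted p between 0.0584 and 0.15. All 15 kept them after GC correction and 8 kept them with the adipocyte covariate. In the mean of the other 5 times all 15 rose, against 4.84% of all genes.

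**Figure D3:**
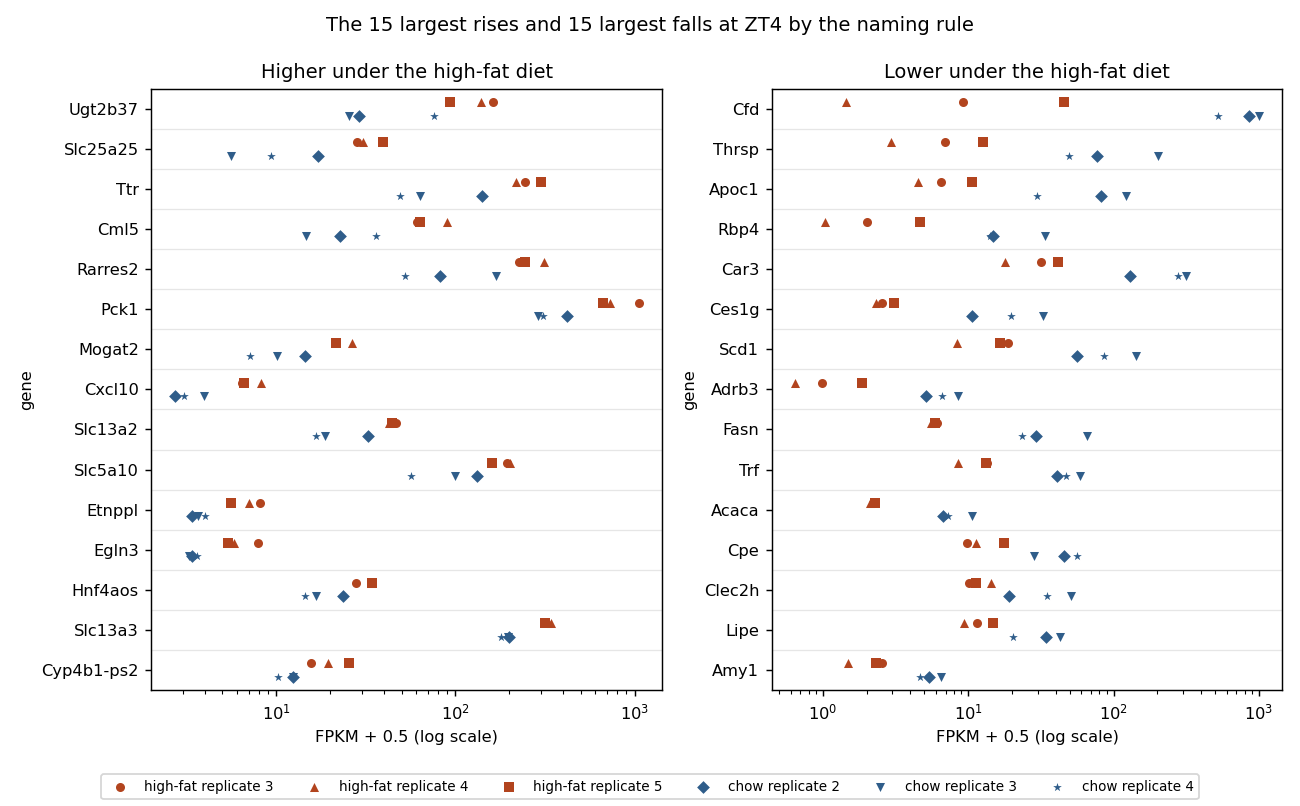
FPKM + 0.5 (x axes, log scale) of the 15 genes with the largest rises (left panel) and the 15 with the largest falls (right panel) under the high-fat diet at ZT4, with the 3 high-fat libraries above the 3 chow libraries in each row and 1 point per library. The groups do not overlap in any row, which the rule for naming these genes required, and chow replicate 2 lies closest to the high-fat libraries for Ttr, Slc25a25 and Slc13a2.

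The remaining lists had few or no called genes. Of 38 fatty acid oxidation genes and PPARA targets tested, 0 passed the limma test, with 2 higher and 4 lower at an unadjusted p under 0.05, a share near that of all genes (1933 of 11144). Their median log2 change was -0.02, against -0.11 for all genes, and after GC correction it was 0.12, against 0.02 for all genes. Of 25 sterol synthesis genes, 1 rose and 1 fell, with 22 of 25 negative log2 changes and a median of -0.28. Ebp, a sterol isomerase, rose, with 81.8, 78.9 and 76.3 FPKM in high-fat kidneys, against 71.7, 56.8 and 40.8 FPKM in chow kidneys (adjusted p = 0.0237, and 0.124 without chow replicate 4).

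Of 6 MHC class II genes tested, which present antigen on immune cells, 0 passed the limma test. All 6 had an unadjusted p under 0.05, against 1933 of all 11144 genes, and a positive log2 change, between 0.47 and 0.67. Of the 6, 3 were higher without overlap, against 2.34% of all genes. The summed level of the list overlapped, with 694, 765 and 1149 FPKM in high-fat kidneys, against 722, 620 and 408 FPKM in chow kidneys. Of 51 oxidative phosphorylation genes, 0 passed the limma test, with 1 higher and 0 lower at an unadjusted p under 0.05 and log2 changes between -0.33 and 0.22. Of 44 cytosolic ribosome genes 0 passed the limma test and 0 had an unadjusted p under 0.05. Against chow replicate 4 alone, where 9.76% of all genes passed as higher and 34.1% as lower, the counts were different. In that fit 5 of the MHC class II genes rose and 0 fell, 18 of the oxidative phosphorylation genes rose and 6 fell, and 26 of the ribosome genes rose and 0 fell. Of the glucose metabolism genes 12 rose and 3 fell in it, of the sterol synthesis genes 2 rose and 9 fell, and of the fatty acid oxidation genes 6 rose and 11 fell. Single called members of other lists were Mt1, the metallothionein, which fell (adjusted p = 0.0199, and 0.304 against chow replicate 4 alone), Krt8, a keratin of injured tubules, which rose (adjusted p = 0.0246, and 0.131 without high-fat replicate 5), and Herpud1, of the unfolded protein response, which rose (adjusted p = 0.0420, and 0.134 without high-fat replicate 4). In 21 of the 38 lists no member passed, and of their 298 tested members 16 were higher and 37 lower at an unadjusted p under 0.05, which is near the share over all genes (1933 of 11144).

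**Figure D4:**
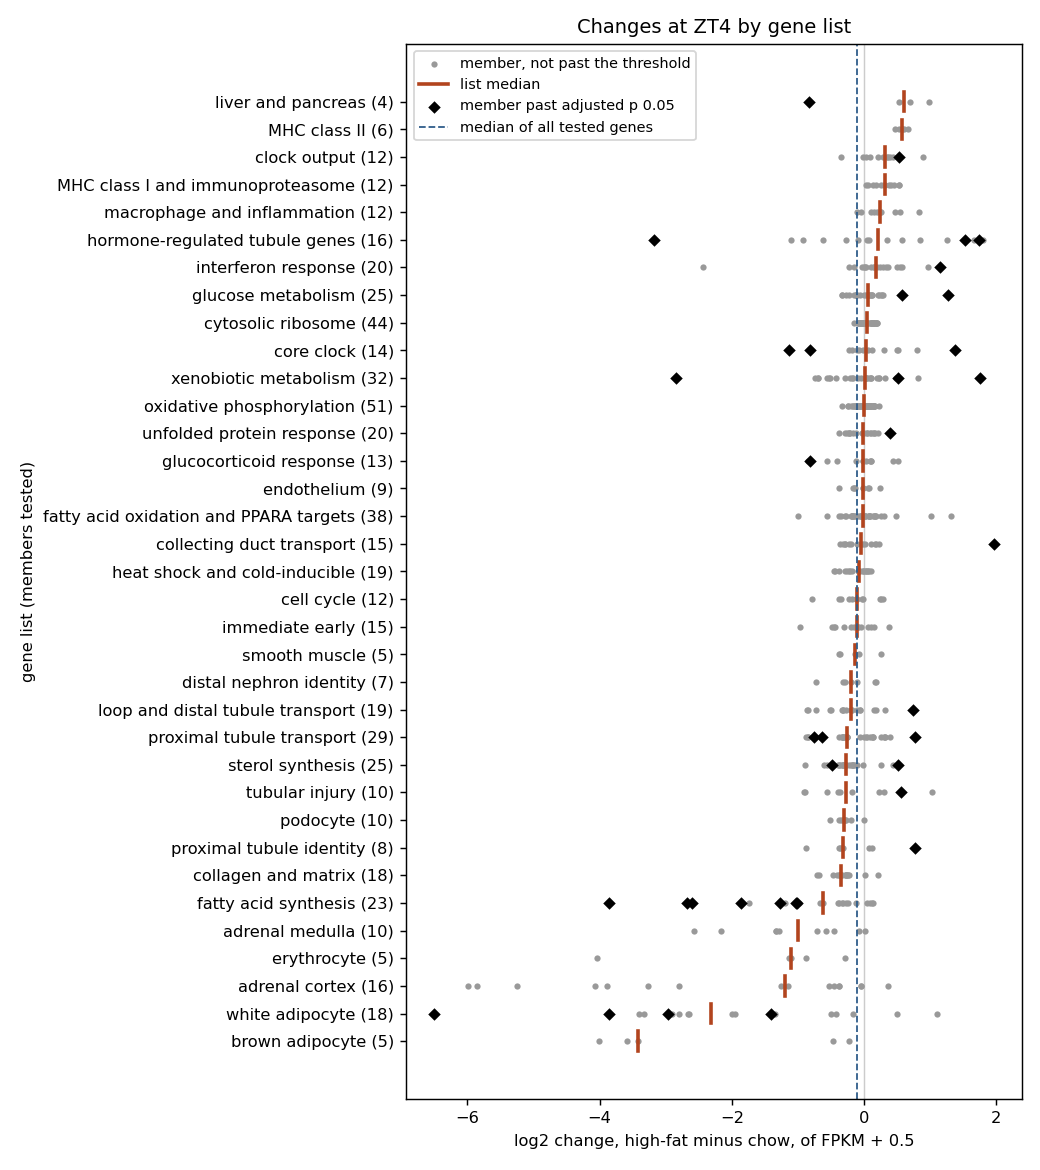
Log2 change of FPKM + 0.5, high-fat minus chow at ZT4 (x axis), of each tested member of the lists with at least 4 tested members (y axis, number tested in brackets). Diamonds mark members past an adjusted p of 0.05, upright bars the list medians and the dashed line the median of all genes, -0.11. The fatty acid synthesis list has 7 diamonds, all to the left, and the lists with the lowest medians are those of fat, adrenal gland and red blood cells.

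Among clock genes, a repressor rose and 2 of the activators fell in high-fat kidneys at ZT4. Of 14 core clock genes tested, 1 rose (Ciart) and 2 fell (Npas2 and Arntl), against 0.476% and 1.13% of all genes. The 14 had a median log2 change of 0.03. Against chow replicate 4 alone 1 rose and 5 fell, near the shares of all genes in that fit (9.76% higher and 34.1% lower). Ciart encodes CHRONO, a repressor of BMAL1 that is itself driven through E-boxes, the letters CACGTG. The 250 bases before its RefSeq start hold 3 of them. They are shown for this reason (chr3:95882229-95882478, minus strand, GRCm38.p6, RefSeq), with the E-boxes in capitals.
Ciart: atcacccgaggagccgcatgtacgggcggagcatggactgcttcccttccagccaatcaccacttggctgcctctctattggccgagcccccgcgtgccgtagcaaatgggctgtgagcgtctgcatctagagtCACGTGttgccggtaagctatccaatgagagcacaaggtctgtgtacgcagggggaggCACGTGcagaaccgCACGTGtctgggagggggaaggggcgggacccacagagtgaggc
Of 32851 promoter windows of 300 bases, 7.15% hold an E-box, which reads the same on both strands, and 0.0883% hold 3 or more. The windows of Npas2, Dbp and Usp2 hold none.

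Ciart had 3.89, 3.38 and 3.85 FPKM in high-fat kidneys, against 0.753, 1.82 and 0.979 FPKM in chow kidneys. Every high-fat library was above every chow library, and the log2 change was 1.37 ± 0.25 (SE, adjusted p = 0.00325) and 1.51 against chow replicate 4 alone. Npas2, which encodes a partner of BMAL1, had 0.402, 0.451 and 0.529 FPKM in high-fat kidneys, against 1.55, 1.36 and 1.95 FPKM in chow kidneys. The groups were well apart at these low levels, with a log2 change of -1.14 ± 0.19 (SE, adjusted p = 0.00187). Arntl, which encodes BMAL1, had 1.06, 1.22 and 0.874 FPKM in high-fat kidneys, against 1.95, 2.07 and 2.70 FPKM in chow kidneys, with a log2 change of -0.81 ± 0.17 (SE, adjusted p = 0.0121). Its adjusted p was 0.0713 without high-fat replicate 5, it also missed the threshold without chow replicate 4, and it was 0.0637 with the adipocyte covariate.

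Arntl is known to be set by REV-ERB repressors and ROR activators through the element RORE, whose core TAGGTCA (or its reverse complement) occurs in 2.61% of the windows. RefSeq gives Arntl 2 starts, and the window of 1 of them holds a match, just inside the transcript, shown in capitals (chr7:113207530-113207558, plus strand, GRCm38.p6, RefSeq).
Arntl: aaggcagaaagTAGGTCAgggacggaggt
The Npas2 window holds no such match. Nr1d1, which encodes REV-ERB alpha, had 35.0, 27.6 and 40.2 FPKM in high-fat kidneys, against 37.3, 41.1 and 26.0 FPKM in chow kidneys, and Nr1d2 and Rora overlapped between the diets as well.

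The 3 Per genes did not pass the test. Per1 had 3.43, 3.00 and 4.03 FPKM in high-fat kidneys, against 2.12, 2.41 and 2.31 FPKM in chow kidneys, without overlap (log2 change of 0.51 ± 0.30 (SE), adjusted p = 0.377). Per2 had 1.498, 1.47 and 0.996 FPKM in high-fat kidneys, against 0.643, 0.661 and 1.09 FPKM in chow kidneys, and Per3 overlapped too. Bhlhe40, a further repressor, had 19.4, 16.1 and 12.1 FPKM in high-fat kidneys, against 5.72, 7.43 and 15.2 FPKM in chow kidneys (adjusted p = 0.0832, and 0.0159 after GC correction). Chow replicate 4 was inside the high-fat range for it. Clock, Cry1 and Cry2 overlapped between the diets. Against chow replicate 4 alone, however, the log2 change was -1.09 for Nr1d2, -0.98 for Rora and -1.0027 for Clock. With GC correction as well, a fit chosen after seeing the data, the log2 change of Clock against that library was -0.25. Bhlhe41 was below the filter of a mean of 1 FPKM.

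Output genes are driven by the clock without being part of its loop. Of 12 clock output genes, 1 rose and 0 fell, against 0.476% and 1.13% of all genes. At an unadjusted p under 0.05, 5 were higher and 0 lower, against 1933 of all 11144 genes in either direction. The list had 10 positive log2 changes and a median of 0.32. Usp2, a deubiquitinase, had 37.3, 34.4 and 35.9 FPKM in high-fat kidneys, against 26.0, 26.8 and 21.6 FPKM in chow kidneys (adjusted p = 0.0453, and 0.148 without chow replicate 4). Dbp, a transcription factor of output genes that overlaps Sphk2 on the other strand, had 30.8, 21.5 and 25.3 FPKM in high-fat kidneys, against 12.2, 14.3 and 14.3 FPKM in chow kidneys. These did not overlap, but the log2 change of 0.89 ± 0.25 (SE) had an adjusted p of 0.0606. Against chow replicate 4 alone the median of this list was -0.08, where that of all genes was -0.20. Tef and Hlf, relatives of Dbp, were then at -0.06 and -0.09.

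The diet difference at ZT4 was next set against the mean diet difference of the other 5 times in the same fit. Of 11144 genes, 3 (0.0269%) passed, 1 (0.00897%) with a higher and 2 (0.0179%) with a lower difference at ZT4, and 1115 had an unadjusted p under 0.05. They were Ciart, Npas2 and Ndrg1. Of the 179 genes called at ZT4, 126 were called in the same direction in the mean of the other times, where 1494 genes (13.4%) passed, 4.84% of genes higher and 8.57% lower. This is 70.4% of the ZT4 calls and 8.43% of the calls of the other times. Only 11 of the 179 had the opposite sign there, and 2 were called in the opposite direction.

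Ciart had a diet difference of 1.81 ± 0.27 (SE) log2 units above that of the other times (adjusted p = 0.00214, and 0.0761 with a pseudocount of 0.1). Its mean level was 3.71 ± 0.283 FPKM in high-fat kidneys and 1.18 ± 0.561 FPKM in chow kidneys at ZT4 (SD, n = 3 each). At ZT12 the order was the other way round, with 6.82 ± 1.37 FPKM in high-fat kidneys and 10.4 ± 0.738 FPKM in chow kidneys (SD, n = 3 each). Npas2 had a difference of -1.24 ± 0.21 (SE, adjusted p = 0.0110). It averaged 0.461 ± 0.0641 FPKM in high-fat kidneys and 1.62 ± 0.303 FPKM in chow kidneys at ZT4, and 1.38 ± 0.704 FPKM in high-fat kidneys and 0.522 ± 0.155 FPKM in chow kidneys at ZT16 (SD, n = 3 each). Its adjusted p was 0.125 without chow replicate 4, 0.0773 without high-fat replicate 3 and 0.0703 without high-fat replicate 4.

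Ndrg1 encodes a stress-responsive protein. It had 564, 608 and 682 FPKM in high-fat kidneys, against 1132, 879 and 925 FPKM in chow kidneys at ZT4 (log2 change of -0.66 ± 0.14 (SE), adjusted p = 0.0113). Without high-fat replicate 4 that adjusted p was 0.0621, and without high-fat replicate 3 it also missed the threshold. At ZT16 the means were 1193 ± 135 FPKM in high-fat kidneys and 738 ± 67.1 FPKM in chow kidneys (SD, n = 3 each). The difference of ZT4 from the other times was -0.999 ± 0.15 (SE, adjusted p = 0.00214) and passed with each of the 6 libraries left out in turn, but not after upper quartile rescaling (adjusted p = 0.0567).

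**Figure D5:**
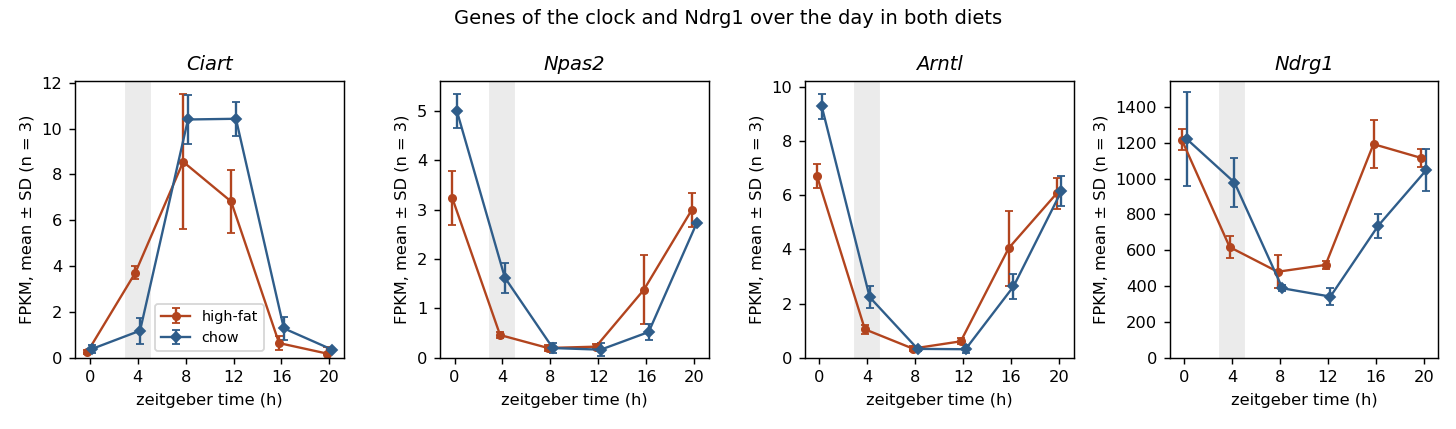
Mean FPKM ± SD (n = 3 libraries per point) of Ciart, Npas2, Arntl and Ndrg1 over zeitgeber time in h (x axes) in high-fat and chow kidneys, with ZT4 shaded. At ZT4 Ciart is higher and the other 3 genes are lower in high-fat kidneys, and the mean of Ndrg1 is higher in high-fat kidneys at ZT8, ZT12, ZT16 and ZT20, at ZT20 by less than the SD of the chow libraries.

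Arntl did not pass this test of ZT4 against the other times (difference of -0.92 ± 0.19 (SE), adjusted p = 0.106), and nor did Dbp (1.20 ± 0.27 (SE), adjusted p = 0.148) or Usp2 (0.67 ± 0.15 (SE), adjusted p = 0.148). Among the other genes with the smallest p in it, Slc13a3 had a difference of 0.45 and Slc16a1, a carrier of lactate and ketones, one of -1.01, with adjusted p of 0.221 for Slc13a3 and 0.106 for Slc16a1. Slc16a1 had 4.90, 7.01 and 5.81 FPKM in high-fat kidneys, against 6.19, 9.87 and 12.1 FPKM in chow kidneys. Without both chow libraries with adrenal transcripts 4943 genes passed the test against the other times, and without chow replicate 2 alone 1362 did. Both counts set chow replicate 4, or chow replicates 3 and 4, against the other groups.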

How the data were processed

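RNA was measured in 36 kidney libraries in 12 groups of 3, 1 table per diet with the same 24883 rows. The authors deposited FPKM, and the submitters' processing notes name CASAVA 1.8.2, Bowtie, Cuffnorm and the build mm10, the last 2 tools without a version. Since FPKM are normalised, count models were left aside. Rows of repeated symbols (817 rows of 280 symbols) were dropped. Genes with a mean of at least 1 FPKM over the 36 libraries (11144) were tested on log2(FPKM + 0.5), which understates changes of low genes, with limma 3.58.1 in R 4.3.3 (12 group means, mean-variance trend, two-sided, Benjamini-Hochberg threshold 0.05). Relative depth came from the commonest ratio of low FPKM values between libraries, and absolute depth is unknown. The fit was tested on simulated data. Each gene had the same spread in all groups there, so the wider spread of the chow ZT4 group was not covered.

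Named genes were Cyp21a1, Adipoq, the 6 lowest calls, the 15 largest called changes per direction (mean of at least 5 FPKM in the higher group, no overlap, at least 0.58 log2 units in the same direction against chow replicate 4, no unnamed gene models), up to 4 called members by p per list, the core clock genes and the 6 lowest p per direction against the other times. Other genes are said to be chosen after their values were seen or are members given beside a list (Acacb, Srebf1, G6pc, Tef, Hlf) and tissue markers. The comparison, its 38 lists (662 genes) and these rules were chosen with earlier results of these data known. Gene coordinates were taken from GENCODE M21 (GRCm38, equal to mm10) and start at 1. Some genes that these rules take are not reported here but stayed in every fit and count.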

Additional observations from a re-analysis of the deposited data

Results flagged for a closer look

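For 3 genes the diet difference at ZT4 differed from the mean diet difference of the other 5 times by limma's test of that difference (adjusted p under 0.05). The difference was 1.81 log2 units for Ciart, -1.24 for Npas2 and -0.999 for Ndrg1. No group of this comparison had more than 3 libraries, so single libraries were not tested as outliers.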

How the results depend on the processing

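Of 22 alternatives, 20 were fixed with the design and 2 (GC correction without the chow libraries with adrenal transcripts, and GC correction of the 6 libraries alone) were chosen after seeing the data. The 179 calls at ZT4 became 117 with a filter of 5 FPKM, 337 (244 higher, 93 lower) with GC correction and 68 with the adipocyte covariate, which kept 60 of them. They became 4887 without the 2 chow ZT4 libraries with adrenal transcripts, 4929 without all 4 chow libraries with adrenal transcripts, 3313 (5 of the 179 then with the other sign) with GC correction and without the 2, and 1 in either fit of the 6 libraries alone (564 genes at an unadjusted p under 0.05, and 807 with GC correction). Leaving out 1 library gave 49 to 1807. Other pseudocounts, rescalings, no filter and a robust prior gave 171 to 242.

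The 3 genes that differed at ZT4 from the other times became 1 with a pseudocount of 0.1, 1 with a filter of 5 FPKM (Ciart and Npas2 were then not tested), 10 without a filter, 6 with GC correction, 4943 and 4962 without the libraries with adrenal transcripts, 3241 with GC correction and without the 2 at ZT4, and 2 to 1362 with 1 library left out. The cause was not tested for any of these.

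With the replicate number as a block, 136 genes passed at ZT4 (122 of the 179) and 2 against the other times, where Npas2 had an adjusted p of 0.0861. GC correction with the block gave 272 and 1. The diets share only the numbers 3 and 4, whose same-numbered libraries had correlations of -0.09 and 0.26. Libraries of unlike number had correlations of -0.402 to 0.434. Whether the numbers pair the samples cannot be told from so few values.

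Of 52 named genes called, 18 kept their calls with each library left out and 13 in every alternative in which they were tested other than the fits of 6 libraries. These 13 were Acaca, Cela1, Ces1g, Ciart, Fads1, Fasn, Npas2, Pck1, Pvalb, Slc13a2, Slc13a3, Trf and Ugt2b37. None changed sign.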
